A study of Rattus norvegicus with 36 samples.

Results

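Transcripts of collagens and other extracellular matrix proteins were followed in the ileum and proximal colon of male UCD-T2DM rats. With earlier results of these data known, a set of 59 gene symbols was listed. They were chosen by name as collagen chains, their partners in the matrix, and the enzymes and inhibitors that build or cut it. A row in the count table was found for 56 of them, and *Col1a2*, *Hspg2* and *Mfap4* were not analysed here. *Ogn* held 0 counts in all 36 libraries, which left 55 of the 24773 genes of the table. *Col15a1* held 101 counts in all and was too low to be tested, so that 54 members were tested in each tissue.

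The UCD-T2DM rat is a strain of polygenic origin in which type 2 diabetes arises spontaneously in adult animals, and no allele or agent differed by design between its groups. Each group held 6 males. ND rats were 70 days old and had no diabetes, D1M rats were 168 to 172 days old and had had diabetes for 22 to 23 days, and D3M rats were 172 to 173 days old with 88 to 116 days of untreated diabetes. Fasting glucose was 85.6 to 101.6 mg/dl in ND, 93.6 to 178.6 mg/dl in D1M and 165 to 330.6 mg/dl in D3M rats. The ND rats were younger animals of the same strain that had not become diabetic, so that age and diabetes cannot be told apart in any comparison with ND. Every rat gave 1 ileum and 1 colon library of whole, flash-frozen tissue, in which epithelium, connective tissue and muscle were sequenced together.

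The extracellular matrix of the gut wall is made mostly by fibroblasts and, in the muscle layers, by smooth muscle cells. Fibrillar collagens form the strong fibers of the submucosa and the core of each villus, beaded and fibril-associated collagens tie those fibers to cells and to each other, and elastic fibers let the wall recoil. The basement membrane is a thin sheet of collagen IV, laminins and nidogens on which the epithelium, the vessels and the muscle cells rest. Collagen chains are folded and hydroxylated inside the cell, trimmed and crosslinked outside it, and cut by proteases whose activity is held down by inhibitors.

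Libraries held 12279059 to 21510043 counts in ileum and 10024041 to 18299050 in colon, and the members together took 0.163 to 0.42% of the counts of an ileum library and 0.27 to 0.592% of those of a colon library. Levels are given as CPM, counts scaled to the library total and by the TMM factors of all 36 libraries. Gene lengths were not used, so levels are compared between samples and not between genes. Folds are log2 and come from edgeR with group and flow cell in the model, and FDR is the p-value adjusted over all genes tested in the tissue, with calls made under 0.05. The labels of the tissues were borne out by 8 ileal and 7 colonic identity genes, all of which differed between the tissues in the direction of their names. Ileal genes summed to 13700 CPM in the colon of ND rat K4028, where the rest of the colon libraries held 93.2 to 471.4 CPM. Colonic genes summed to 4547 CPM in the ileum of ND rat K4040 and to 2111 CPM in that of D3M rat P762. Libraries were run on 3 flow cells, and D3M rats had no ileum library on flow cell 2 and no colon library on flow cell 1. Replicates were separate rats, so the tests measure differences against the spread between rats.

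D3M rats had lower levels of several matrix transcripts in ileum than ND rats. Between these groups 6 members fell, *Eln*, *Sparc*, *Timp2*, *Mfap5*, *Col1a1* and *Lama2*, and 1 rose, *Fbln1*, among 54 tested. Over all 13026 genes tested in ileum 12.5% were called, 4.22% as lower and 8.31% as higher. The folds of 48 of the 54 members were negative with a median of -0.471, where 58.4% of all genes were negative with a median of -0.081. An unadjusted p under 0.05 with a lower level in D3M was seen in 18 members and in 14.7% of all genes. With a higher level it was seen in 1 member and in 14.9% of all genes. In whole tissue, fewer cells of a type and less RNA per cell cannot be told apart.

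**Figure D1:**
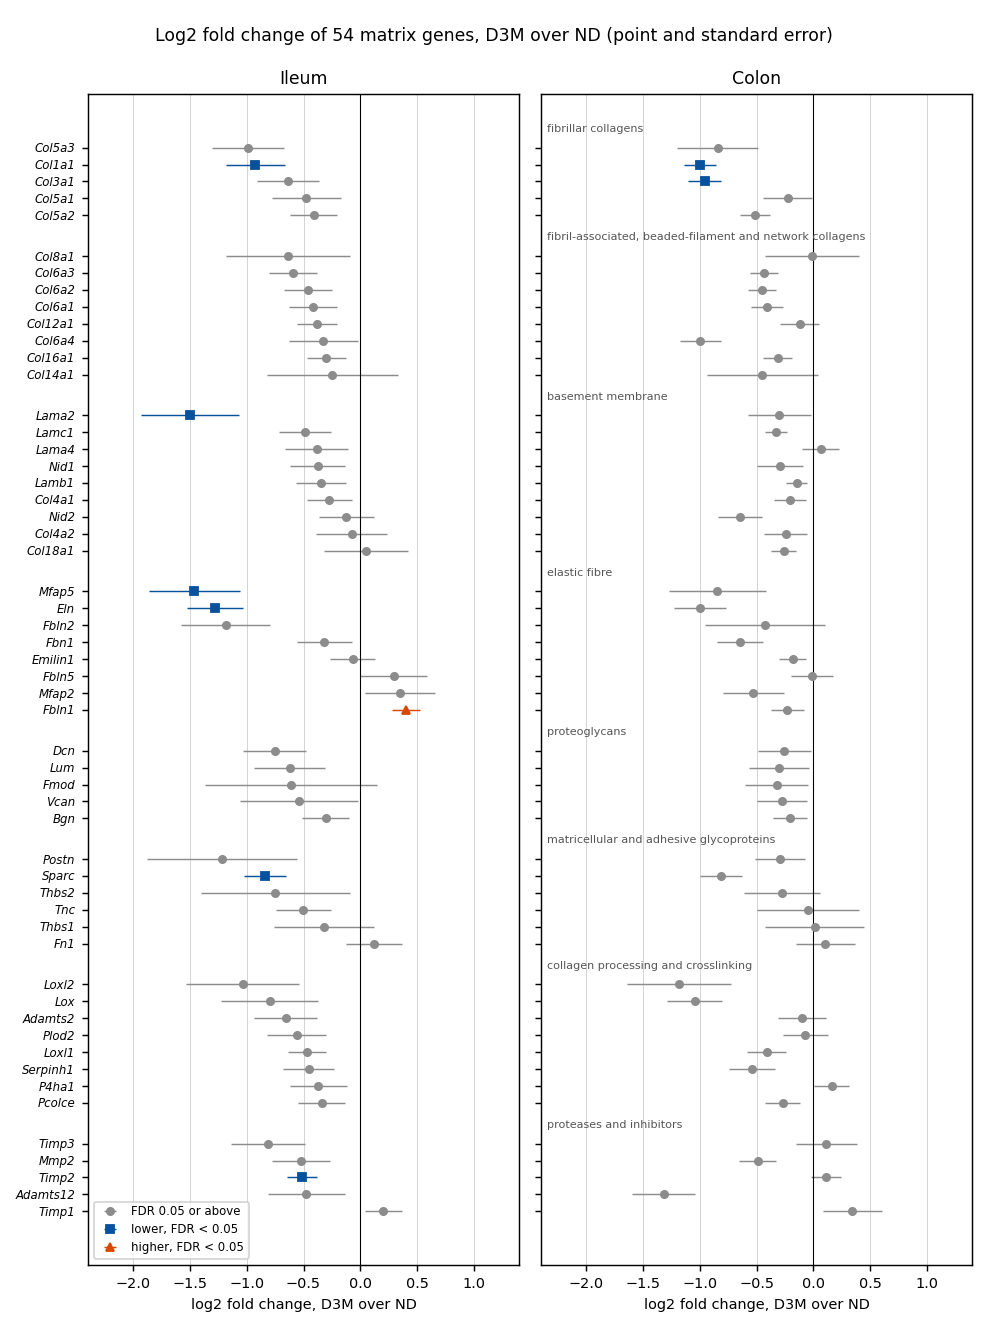
Log2 fold change of each of the 54 members between D3M and ND rats (x axis) in ileum and colon, grouped by role (y axis), with bars of 1 SE from edgeR over 18 libraries a tissue. Most points lie left of 0 in both tissues, and *Fbln1* in ileum is the called member to the right of it.

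*Eln* encodes elastin, the extensible core of the elastic fiber (ENSRNOG00000001469, chromosome 12, 24978483 to 25021863, plus strand, rn6). Its level in ileum was 27.5 to 52.9 CPM (median 35.9) over ND, 15.9 to 33.0 (median 22.0) over D1M and 10.9 to 22.9 (median 15.4) over D3M rats. The highest D3M library lay below the lowest ND library, and the D1M libraries overlapped both (log2 fold change -1.28, SE 0.24, FDR 0.0049). *Mfap5*, a glycoprotein of the microfibrils that surround elastin (ENSRNOG00000015505, chromosome 4, 155313671 to 155336228, plus strand), measured 1.59 to 5.54 CPM (median 2.97) over ND, 0.891 to 5.68 (median 1.75) over D1M and 0.914 to 1.81 (median 1.11) over D3M rats. The D3M libraries were low and close together, and the highest of them reached into the range of the ND libraries (log2 fold change -1.46, SE 0.40, FDR 0.0272). *Fbln1*, which encodes the elastin- and fibronectin-binding fibulin-1 (ENSRNOG00000014137, chromosome 7, 126096793 to 126176468, plus strand), went the other way, at 121 to 170.3 CPM (median 139) over ND, 134 to 168 (median 163) over D1M and 133 to 221 (median 195) over D3M rats. Its groups overlapped (log2 fold change 0.40, SE 0.12, FDR 0.0394).

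The other elastic fiber genes were not called by edgeR in ileum, and *Fbln2* was called by DESeq2 and voom. *Fbn1*, the fibrillin of the microfibril, measured 27.5 to 58.0 CPM (median 43.4) over ND, 31.6 to 59.1 (median 40.3) over D1M and 25.9 to 45.5 (median 40.0) over D3M rats, and its groups lay over each other (log2 fold change -0.32, SE 0.24, FDR 0.4). *Emilin1*, a glycoprotein at the edge of elastin, had a fold of -0.067, FDR 0.846, and that of *Mfap2*, another microfibril glycoprotein, was 0.35, FDR 0.47. Of the 8 genes of this role 2 fell, 1 rose and 5 were not called by edgeR, with a median of -0.192. Elastin and fibulin-1, which meet in the same fiber, moved in opposite directions.

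*Col1a1* encodes the main chain of type I collagen, the most common fibrillar collagen (ENSRNOG00000003897, chromosome 10, 82745801 to 82762789, plus strand). In ileum it measured 113 to 192 CPM (median 151) over ND, 90.6 to 189 (median 125) over D1M and 58.6 to 122 (median 89.5) over D3M rats. The upper end of the D3M range reached into the lower end of the ND range (log2 fold change -0.92, SE 0.26, FDR 0.0324). *Col3a1*, which forms thinner fibrils together with type I, measured 232 to 524 CPM (median 362) over ND, 273 to 459 (median 336) over D1M and 162 to 358 (median 262) over D3M rats and did not pass the threshold in ileum (log2 fold change -0.64, SE 0.27, FDR 0.134). *Col5a2*, a chain of the type V collagen that seeds fibrils, had a fold of -0.41, FDR 0.185. All 5 fibrillar chains tested had negative folds, from -0.989 to -0.412, and 1 was called by edgeR. DESeq2 also called *Col5a3*.

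*Sparc* encodes a secreted collagen-binding glycoprotein that is needed for the deposit of fibrillar collagen and of collagen IV (ENSRNOG00000012840, chromosome 10, 40742400 to 40764185, minus strand). Its ileal level was 208 to 419 CPM (median 264) over ND, 209 to 292 (median 242) over D1M and 147 to 223 (median 179) over D3M rats. The ND libraries were high and spread, and the D3M range passed the lowest ND value at its upper end (log2 fold change -0.84, SE 0.19, FDR 0.0103). *Fn1*, the fibronectin on which collagen fibrils assemble, measured 59.1 to 164 CPM (median 96.2) over ND, 102 to 165 (median 143) over D1M and 90.7 to 171 (median 137) over D3M rats, with no call (log2 fold change 0.12, SE 0.25, FDR 0.769). *Postn*, a matricellular protein that helps crosslink collagen, measured 12.4 to 68.1 CPM (median 42.2) over ND, 10.3 to 54.4 (median 36.8) over D1M and 5.52 to 48.9 (median 19.0) over D3M rats. The libraries of each group spread several-fold, and its fold of -1.22 had an SE of 0.66 and an FDR of 0.23. Of the 6 matricellular and adhesive members 1 fell and 5 were not called by edgeR, with a median of -0.625, and voom called *Postn* (-2.105, FDR 0.0228).

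*Timp2* encodes an inhibitor of matrix metalloproteases that also takes part in the activation of the gelatinase *Mmp2* (ENSRNOG00000003148, chromosome 10, 107338465 to 107386072, minus strand). It measured 48.5 to 69.9 CPM (median 53.3) over ND, 44.1 to 56.4 (median 51.1) over D1M and 34.0 to 45.1 (median 41.3) over D3M rats in ileum, and every D3M library lay below every ND library (log2 fold change -0.51, SE 0.13, FDR 0.0183). *Mmp2* itself, a protease of denatured collagen and collagen IV, measured 71.7 to 134 CPM (median 112) over ND, 79.2 to 133 (median 89.9) over D1M and 42.7 to 101 (median 78.6) over D3M rats, and its groups overlapped (log2 fold change -0.52, SE 0.25, FDR 0.182). *Timp1* had a fold of 0.20, FDR 0.421. Its gene overlaps *Syn1* on the opposite strand, which held 6960 counts over all libraries against 38647 for *Timp1*, and whether reads were counted by strand is not stated. The protease *Adamts12* had a fold of -0.47, FDR 0.361.

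*Eln* and *Timp2* were the 2 members, 3.7% of the 54, whose D3M ileum libraries all lay below all ND libraries, and this held for 1.32% of all genes tested. No member had all D3M above all ND libraries.

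*Lama2* encodes the laminin α chain of muscle and mesenchymal basement membranes (ENSRNOG00000011134, chromosome 1, 18491384 to 19143269, plus strand). It was low throughout the ileum, at 1.26 to 4.02 CPM (median 3.21) over ND, 1.10 to 4.00 (median 2.31) over D1M and 0.342 to 1.62 (median 1.28) over D3M rats, and the D3M libraries overlapped the ND libraries at their lower end (log2 fold change -1.50, SE 0.43, FDR 0.0337). The other basement membrane members showed smaller folds. *Col4a1*, a chain of the collagen IV network, measured 119 to 215 CPM (median 144) over ND, 133 to 214 (median 166) over D1M and 116 to 171 (median 133) over D3M rats (log2 fold change -0.27, SE 0.20, FDR 0.368). *Lamb1*, the β1 chain shared by many laminins, had a fold of -0.35, FDR 0.306, and *Col18a1*, whose product carries endostatin at its end, one of 0.047, FDR 0.944. Of the 9 members of this role 1 fell and 8 were not called, and 8 of the 9 folds were negative.

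The collagen VI chains, which form beaded filaments around cells, gave negative folds in ileum without passing the threshold. *Col6a1* was at -0.42, FDR 0.206, *Col6a2* at -0.46, FDR 0.163 and *Col6a3* at -0.59, FDR 0.0771. *Col6a2* measured 193 to 358 CPM (median 273) over ND, 238 to 349 (median 274) over D1M and 148 to 283 (median 230) over D3M rats. *Col6a4* had a fold of -0.33, FDR 0.498. All 8 members of the role were negative, with a median of -0.398, and none was called by edgeR, with an unadjusted p under 0.05 in 3. DESeq2 called *Col6a3* (FDR 0.0484).

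Among the proteoglycans, which coat and space collagen fibrils, *Dcn* (decorin) measured 48.8 to 133 CPM (median 98.5) over ND, 57.4 to 131 (median 91.7) over D1M and 52.9 to 103 (median 66.7) over D3M rats in ileum (log2 fold change -0.75, SE 0.28, FDR 0.0831). *Lum* (lumican) had a fold of -0.62, FDR 0.195 and *Bgn* (biglycan) one of -0.31, FDR 0.336. All 5 were negative and none was called by edgeR, and 1 had an unadjusted p under 0.05. DESeq2 called *Dcn* (FDR 0.0429) and voom *Fmod*, and *Dcn* (FDR 0.0199) and *Lum* (FDR 0.0316) were called without ND rat K4028. The 8 members that fold, trim or crosslink collagen were likewise all negative, from -1.037 to -0.341, with none called by edgeR or DESeq2 and 3 at an unadjusted p under 0.05. *Loxl1*, a lysyl oxidase of elastic fibers, measured 14.7 to 21.1 CPM (median 19.1) over ND, 11.0 to 19.99 (median 15.5) over D1M and 7.91 to 15.5 (median 11.2) over D3M rats (log2 fold change -0.47, SE 0.17, FDR 0.0734). It was called without a flow cell term (FDR 0.00899), without D3M rat K3959 (FDR 0.0234) and without ND rat K4040 (FDR 0.0495). *Serpinh1*, the chaperone of newly made collagen, had a fold of -0.45, FDR 0.191, and *Pcolce*, which speeds the removal of the collagen propeptide, one of -0.34, FDR 0.274.

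**Figure D2:**
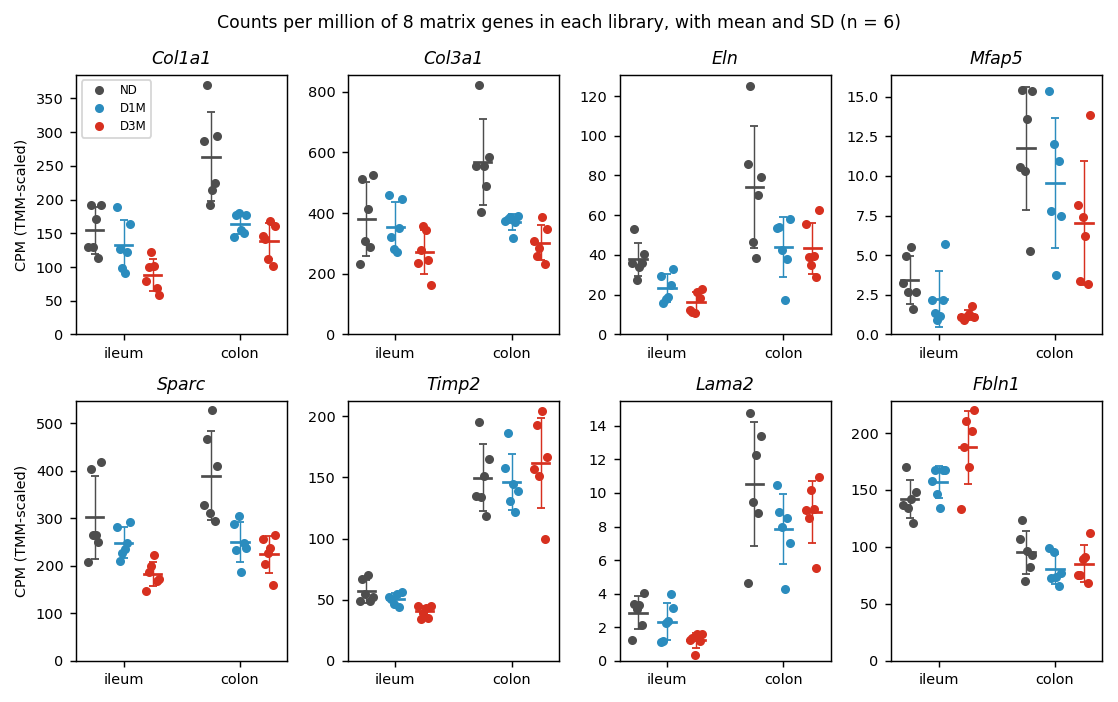
Levels in CPM (y axis) of *Col1a1*, *Col3a1*, *Eln*, *Mfap5*, *Sparc*, *Timp2*, *Lama2* and *Fbln1* in each library of ND, D1M and D3M rats (x axis) in ileum and colon, with the mean and 1 SD of the 6 libraries of a group. The D3M ileum libraries of *Eln* and *Timp2* lie below all ND ileum libraries, and those of the other genes overlap them.

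The promoters of the called genes are shown because these genes fell together in ileum. RefSeq's table for the GRCr8 build held a promoter for 39 of the 55 members. Of the called ones it gave *Sparc*, *Timp2*, *Lama2* and *Mfap5*. The letters are the 250 bases before the start of transcription, 5′ to 3′ on the strand of the gene, with matches to the TATA box (TATAAA), the CCAAT box (CCAAT) and the GC box (GGGCGG) on either strand in capitals. They lie at chr10:40038817-40039066, minus strand for *Sparc*, at chr10:104089215-104089464, minus strand for *Timp2*, at chr1:19491896-19492145, plus strand for *Lama2* and at chr4:157399669-157399918, plus strand for *Mfap5*.
*Sparc*: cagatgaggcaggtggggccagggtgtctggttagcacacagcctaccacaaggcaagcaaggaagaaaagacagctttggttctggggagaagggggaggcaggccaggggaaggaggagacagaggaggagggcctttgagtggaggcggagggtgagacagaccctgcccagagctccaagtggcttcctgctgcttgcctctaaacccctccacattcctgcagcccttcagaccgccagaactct
*Timp2*: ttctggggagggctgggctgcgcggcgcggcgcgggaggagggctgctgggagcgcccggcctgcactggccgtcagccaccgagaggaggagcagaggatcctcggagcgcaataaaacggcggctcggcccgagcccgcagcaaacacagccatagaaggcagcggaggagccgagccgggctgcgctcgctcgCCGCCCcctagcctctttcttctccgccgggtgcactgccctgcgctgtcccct
*Lama2*: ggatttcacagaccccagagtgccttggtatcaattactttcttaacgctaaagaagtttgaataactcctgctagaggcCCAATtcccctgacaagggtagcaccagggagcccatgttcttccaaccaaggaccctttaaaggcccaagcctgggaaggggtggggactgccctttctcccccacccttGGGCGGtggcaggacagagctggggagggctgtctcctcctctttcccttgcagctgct
*Mfap5*: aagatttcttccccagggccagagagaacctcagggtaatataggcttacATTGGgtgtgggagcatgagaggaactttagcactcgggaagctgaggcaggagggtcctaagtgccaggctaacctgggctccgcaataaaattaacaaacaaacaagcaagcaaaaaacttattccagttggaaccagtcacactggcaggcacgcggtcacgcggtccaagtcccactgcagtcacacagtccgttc

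*Sparc* held none of the 3 motifs, *Timp2* a GC box, *Mfap5* a CCAAT box and *Lama2* one of each of those. Their share of G and C was 60% in *Sparc*, 72% in *Timp2*, 55.6% in *Lama2* and 51.6% in *Mfap5*. Over the 39 members the GC box was found in 25 (64.1%, against 33.5% of the 27457 genes with a promoter), the CCAAT box in 12 (30.8% against 36.1%) and the TATA box in 3 (7.7% against 14.1%). The median share of G and C was 61.8% in the members and 51.2% over all genes. The members had counts in these libraries, and the genes set beside them were not limited to such genes. None of these 3 motifs was present in all 4 fallen genes shown. *Timp2* and *Lama2* both held the GC box, and *Lama2* and *Mfap5* both held the CCAAT box. The fallen genes *Eln* and *Col1a1* had no promoter entry.

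How far these results rest on few libraries was examined next. *Eln* was called without any 1 of the 18 rats in the ileum fit, and *Sparc* was lost only without ND rat K4048 (FDR 0.0662). *Timp2* was lost without D3M rat P762 (FDR 0.0563) or ND rat K4040 (FDR 0.0647). *Mfap5*, *Col1a1* and *Lama2* were each lost in 5 such fits, all 3 without D1M rat K3986, D3M rat P762, ND rat K4040 or ND rat K4048, *Mfap5* and *Col1a1* also without D3M rat P780 and *Lama2* without D3M rat K3961, at FDR of 0.0539 to 0.12. *Fbln1* was lost in 9 of the 18 fits, without D1M rats K3986 and K3988, D3M rats K3961, K3977, P762 and P780, and ND rats K4028, K4038 and K4040 (FDR 0.0538 to 0.104). The direction held in every one of these fits for all 7 genes. Without the libraries of flow cell 2 *Eln* and *Sparc* alone were called, and with only the 2 groups in the fit these and *Col1a1*. *Col1a1* was also lost with voom (-0.653, FDR 0.089) and *Fbln1* with upper quartile scaling (0.357, FDR 0.0502).

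The number of members called moved with single rats, and the share of all genes called in these fits is not given here. It was 2 without D3M rat P762, 3 without D1M rat K3986, ND rat K4040 or ND rat K4048, 4 without D3M rat P780 and 13, all lower, without ND rat K4028. The ileum library of K4028 was the lowest of the 6 ND libraries in 36 members and that of K4048 the highest in 32. The median fold of the members was -0.604 without K4028 and -0.274 without K4048. The summed level of the members was 2120 CPM in K4028 and 4170 CPM in K4048, and 2117 to 3099 CPM in D3M rats. Smooth muscle markers summed to 2393 CPM in K4028 and 10510 CPM in K4048, the lowest and highest of the ND libraries. B cell markers summed to 972.5, 572.6 and 1115 CPM in ND rats K4028, K4038 and K4047, where the members summed to 2120, 2671 and 2624 CPM. In K4037, K4040 and K4048 B cell markers summed to 39.12, 39.61 and 54.03 CPM and the members to 4069, 3195 and 4170 CPM. Among D3M rats B cell markers summed to 405.6 CPM in K3959 and 31.08 to 37.27 CPM in the rest. The part of either list in the result was not tested.

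Other marker lists moved with the same comparison, in which 8.31% of all genes were called as higher and 4.22% as lower. Epithelial markers summed to 25950 to 36080 CPM in ND and 37680 to 51790 CPM in D3M ileum, with 6 of 14 genes higher and 1 lower. The ileal identity genes, which mark absorptive epithelium, were higher in 7 of 8. Smooth muscle markers summed to 2393 to 10510 CPM in ND and 2112 to 12360 CPM in D3M ileum, with 0 of 13 called by edgeR, 11 negative folds and none at 0. Of 15 fibroblast markers 2 fell, *Dpt* (-0.96, FDR 0.00761) and *Clec3b* (-1.46, FDR 0.0187), 12 folds were negative and the median was -0.645. The sum of that list was 1866 to 2980 CPM in ND and 2702 to 3666 CPM in D3M ileum, but 83.6% of it was *Dpep1* alone. Of 15 pericyte and endothelial markers 2 fell, *Cldn5* (-0.97, FDR 0.02) and *Tek* (-0.76, FDR 0.0473), with sums of 270.1 to 452.6 CPM in ND and 279.2 to 508.9 CPM in D3M rats. The part of these lists in the matrix result was not tested.

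Within flow cells 1 and 3 the median of the members was negative for D3M against ND ileum, with unequal size. On flow cell 1, with 4 D3M libraries and 1 ND library, 50 of 54 members were lower in D3M ileum with a median difference in mean log2(CPM + 0.5) of -0.57. On flow cell 3, with 2 libraries of each, 33 were lower with a median of -0.184. Over all genes 58.4% had negative folds in the fit of this comparison, and shares within a flow cell were not computed for all genes. The ND library on flow cell 1 was that of K4048, the highest of its group in most members, and flow cell 3 held that of K4028, the lowest in most. All 6 fallen genes were lower on both, from -1.56 (*Eln* and *Lama2*) to -0.37 (*Timp2*) on flow cell 1 and from -1.30 (*Mfap5*) to -0.46 (*Sparc*) on flow cell 3. *Fbln1* was higher on both, by 0.22 and 0.60. These differences have too few libraries for a test.

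Between D1M and ND ileum no change of a member passed the test. EdgeR called 0 of the 54 members and 0.0154% of all genes, and DESeq2 and voom also called 0 members. An unadjusted p under 0.05 was found for 1 lower member, against 3.23% of all genes, and for 1 higher member, against 5.11%. The lower one was *Eln* (log2 fold change -0.72, SE 0.23, FDR 0.436) and the higher one *Timp1* (log2 fold change 0.36, SE 0.15, FDR 0.562). Folds were negative in 56.5% of all genes (median -0.029), and in 30 of the 54 members with a median of -0.008. That median was -0.202 without ND rat K4028 and 0.121 without ND rat K4048, and it differed in sign between flow cells, at -0.42 on flow cell 1, -0.159 on flow cell 2 and 0.389 on flow cell 3. Here too K4048 was the ND rat of flow cell 1, and K4028 was 1 of the 2 on flow cell 3.

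The groups of like age, D3M and D1M, could be compared without the difference in age from the ND rats. In ileum 53 of 54 members had a lower fitted level in D3M, with a median of -0.402, where 56.5% of all genes were negative with a median of -0.04. The exception was *Fbln1* (log2 fold change 0.23, SE 0.11, FDR 0.241). No member was called by edgeR (2.22% of all genes were), and DESeq2 called 2, *Sparc* and *Timp2*, and voom 1, *Fmod*. An unadjusted p under 0.05 with a lower level was found in 17 members and in 7.92% of all genes. The smallest FDR belonged to *Timp2* (log2 fold change -0.36, SE 0.11, FDR 0.0996) and *Sparc* (log2 fold change -0.52, SE 0.16, FDR 0.101), and *Timp2* was called without D3M rat K3959. The median lay between -0.483 and -0.35 when each rat was left out, and on flow cells 1 and 3 it was -0.202 and -0.501. The 3 ileum comparisons share their libraries in pairs and are not independent.

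**Figure D3:**
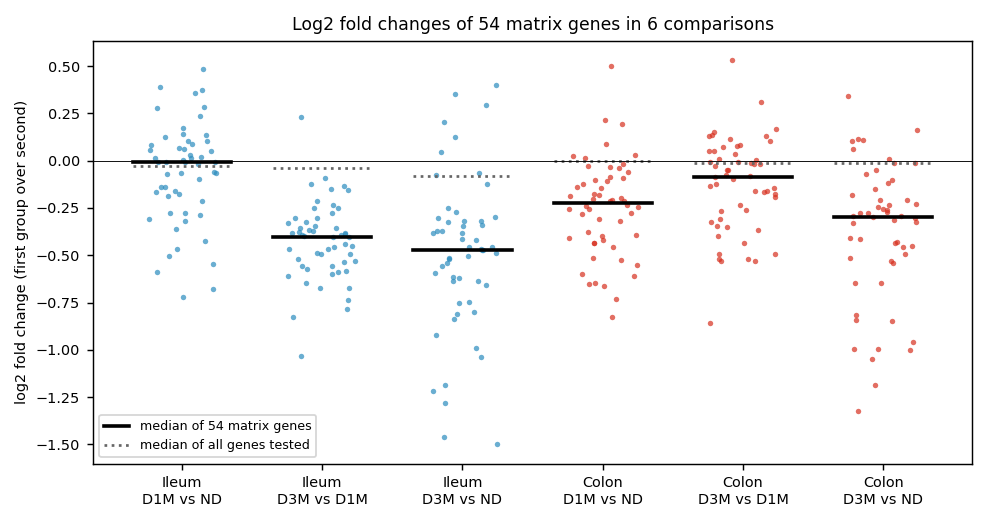
Log2 fold changes (y axis) of the 54 members in the 6 group comparisons (x axis), with the median of the members and the median of all genes tested. The members lie below all genes in ileum for D3M against ND (median -0.471) and against D1M (-0.402), and in colon for D1M (-0.225) and D3M (-0.297) against ND.

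In colon, fibrillar collagens were the members that fell. Between D3M and ND rats 2 of 54 were called, *Col1a1* (log2 fold change -0.999, SE 0.14, FDR 0.0317) and *Col3a1* (log2 fold change -0.96, SE 0.15, FDR 0.0345), and they were the only genes of 12906 to be called, 0.0155% of all. *Col1a1* measured 192 to 369.8 CPM (median 256) over ND, 145 to 180.3 (median 166) over D1M and 101 to 168 (median 144) over D3M rats. *Col3a1* measured 404 to 823 CPM (median 555) over ND, 317 to 390 (median 376) over D1M and 233 to 386 (median 296) over D3M rats. For both genes every diabetic rat of either group lay below every ND rat. The 2 genes lie on different chromosomes, and *Col3a1* (ENSRNOG00000003357, chromosome 9, 52023295 to 52059217, plus strand) faces *Col5a2* across 33293 bases.

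Negative folds in colon reached beyond these chains. Folds were negative in 47 of 54 members with a median of -0.297, against 52.4% and -0.011 over all genes, and 21 members had an unadjusted p under 0.05 with a lower level in D3M, against 5.56% of all genes. By role the medians ran from -0.843 for the 5 fibrillar chains, -0.481 for the 8 elastic fiber genes and -0.423 for the 8 beaded and fibril-associated collagens to -0.164 for the 6 matricellular genes and 0.108 for the 5 proteases and inhibitors. The libraries of D3M and ND did not overlap in 6 members, 11.1% of them, against 0.465% of all genes, and in each of the 6 the D3M libraries were lower. These were *Col1a1*, *Col3a1*, *Col6a4*, *Sparc*, *Adamts12* and *Lamc1*. All but *Lamc1* are in the paper's list of colon differences between D3M and ND rats, which came from the same libraries. The paper drew that list at a looser FDR threshold, and under 0.05 it found *Col1a1* and *Col3a1* alone. The members were chosen with earlier results of these data known, so their share is not independent of those results.

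*Col6a4*, a collagen VI chain, measured 27.5 to 45.1 CPM (median 35.1) over ND, 17.4 to 31.8 (median 21.2) over D1M and 14.6 to 22.3 (median 19.0) over D3M rats (log2 fold change -0.997, SE 0.18, FDR 0.141). It was called by DESeq2 (FDR 0.00141) and by voom (FDR 0.041). *Sparc* measured 294 to 528 CPM (median 369) over ND, 186 to 305 (median 243) over D1M and 159 to 266 (median 231) over D3M rats (log2 fold change -0.82, SE 0.18, FDR 0.194), and DESeq2 called it (FDR 0.00571). *Adamts12* was low in colon, at 2.00 to 4.35 CPM (median 2.69) over ND, 0.711 to 2.08 (median 1.83) over D1M and 1.05 to 1.73 (median 1.18) over D3M rats (log2 fold change -1.32, SE 0.28, FDR 0.141). DESeq2 (FDR 0.00854) and the fit of the 2 groups alone (FDR 0.0181) called it, and the latter also called *Col6a4* (FDR 0.011). The D3M libraries of all 3 genes lay below the ND libraries, and the D1M libraries overlapped both. *Eln* measured 38.7 to 125 CPM (median 74.6) over ND, 17.3 to 58.0 (median 48.1) over D1M and 29.1 to 62.5 (median 39.3) over D3M rats, with overlap between D3M and ND (log2 fold change -0.997, SE 0.23, FDR 0.233), and was called by DESeq2 and with the 2 groups alone.

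Other members of these roles were not called by edgeR in colon. *Col5a2* measured 30.3 to 42.1 CPM (median 34.4) over ND, 21.0 to 30.3 (median 26.4) over D1M and 20.4 to 33.5 (median 25.2) over D3M rats (log2 fold change -0.52, SE 0.13, FDR 0.249), and DESeq2 called it (FDR 0.0366). *Col6a2* was at -0.46, FDR 0.275, *Col6a3* at -0.43, FDR 0.305 and *Col6a1* at -0.41, FDR 0.365, *Fbn1* at -0.65, FDR 0.346 and *Mmp2* at -0.49, FDR 0.361. *Serpinh1* had a fold of -0.54, FDR 0.383 and *Loxl1* one of -0.41, FDR 0.448. The crosslinking enzyme *Lox*, named after its values were seen, was at -1.05, FDR 0.233, and was called by DESeq2 and with the 2 groups alone. The proteoglycans *Dcn*, *Lum* and *Bgn* lay at -0.26, -0.30 and -0.21, none called.

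The other genes called in ileum passed no test in colon. *Timp2* measured 118 to 196 CPM (median 143) over ND, 122 to 186 (median 142) over D1M and 100 to 204 (median 162) over D3M rats in colon (log2 fold change 0.11, SE 0.13, FDR 0.811), and *Timp1* 58.6 to 114 CPM (median 74.8) over ND, 67.8 to 201 (median 106) over D1M and 77.2 to 154 (median 95.8) over D3M rats (log2 fold change 0.34, SE 0.26, FDR 0.672). *Lama2* had a fold of -0.30, FDR 0.736, *Fbln1* one of -0.23, FDR 0.598 and *Mfap5* one of -0.85, FDR 0.524. *Fn1* and *Postn* were at 0.10 and -0.30. These values do not by themselves show a difference between the tissues, which has a test of its own.

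The colon calls were sensitive to the libraries that entered the fit. Both were lost without any 1 of D1M rats K3987 and K3990, D3M rats K3959, K3961, K3977 and P762, or ND rats K4037, K4040 and K4048, with FDR from 0.0541 to 0.156, and *Col3a1* was lost without D1M rat K3978 (FDR 0.0505). Without D1M rat K3988 a further gene, *Col6a4*, was called (FDR 0.0229). *Col1a1* and *Col3a1* were also lost without a flow cell term (FDR 0.0551 each) and without flow cell 2 (-0.931 and -0.993, FDR 0.805 each). Flow cell 2 held 4 of the D3M colon libraries, so the fit without it kept 2. Both genes were called without ND rat K4028, whose colon library held the ileal genes (*Col1a1* -1.014 and *Col3a1* -1.001, FDR 0.026 each, median of the members -0.367). DESeq2 called 8 members, all lower, and the share of all genes that it called is not given here. Over the 18 fits the fold of *Col1a1* stayed between -1.071 and -0.904 and that of *Col3a1* between -1.046 and -0.835. The colon library of ND rat K4037 was the highest of its group in 33 members and that of D3M rat P762 the lowest of its group in 24. Smooth muscle markers summed to 8485 to 20110 CPM in ND colon, with K4037 the highest, and to 8059 to 21620 CPM in D3M colon. Of 16 fibroblast markers in colon 0 were called by edgeR, 15 folds were negative and the median was -0.409, and their part in the result was not tested.

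D1M rats already had lower fitted levels of most members in colon than ND rats. Between D1M and ND colon 47 of 54 members had negative folds, with a median of -0.225 against -0.001 over all genes. None was called by edgeR, as was 0% of all genes, while DESeq2 called 2, *Col1a1* and *Col3a1*, and voom 0. An unadjusted p under 0.05 with a lower level was found in 16 members, against 2.29% of all genes. With a higher level it was found in 1 member, against 2.38% of all genes. *Col1a1* (log2 fold change -0.65, SE 0.13, FDR 0.819), *Col3a1* (log2 fold change -0.61, SE 0.14, FDR 0.933) and *Col5a2* (log2 fold change -0.44, SE 0.12, FDR 0.952) were the 3 members, 5.56% of them, whose D1M libraries all lay below all ND libraries, against 0.124% of all genes. Between D3M and D1M colon 53% of all genes had negative folds (median -0.012), and of the members 37 of 54 (median -0.084). None was called by edgeR, DESeq2 or voom (0% of all genes by edgeR), and 6 members had an unadjusted p under 0.05 with a lower level, against 3.07% of all genes.

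**Figure D4:**
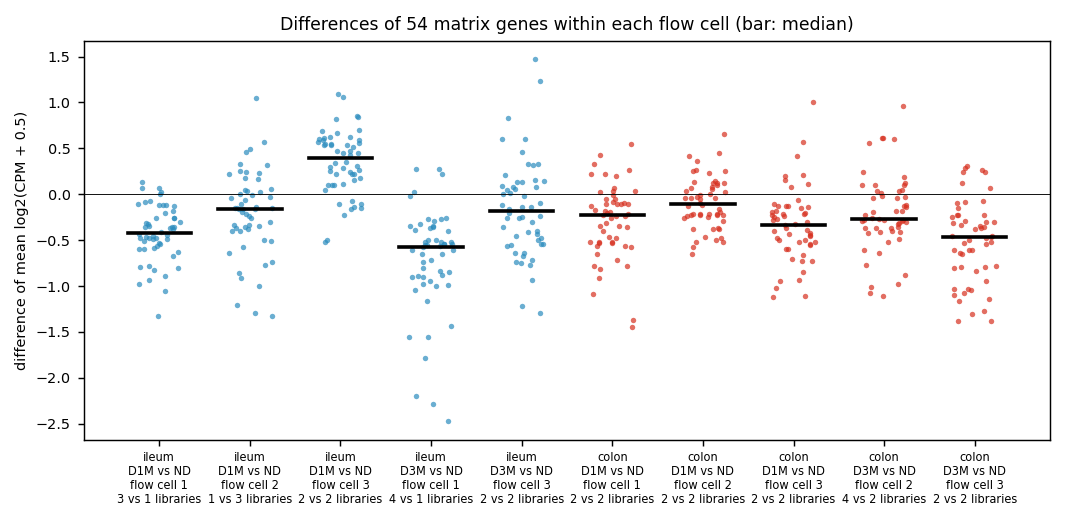
Differences in mean log2(CPM + 0.5) of the 54 members (y axis) of D1M against ND and D3M against ND rats within each flow cell (x axis) that held both groups, in ileum and colon, with medians. All colon medians are negative (-0.471 to -0.103), and the ileum median of D1M against ND is negative on flow cells 1 and 2 and positive on flow cell 3.

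The medians of the colon differences were negative within each flow cell. For D3M against ND the median was -0.264 on flow cell 2, with 39 of 54 members lower, and -0.471 on flow cell 3, with 47 lower. For D1M against ND it was -0.231, -0.103 and -0.332 on flow cells 1, 2 and 3, with 43, 34 and 46 members lower. Flow cell 1 held no D3M colon library. Over all genes 52.4% had negative folds in the fit of D3M against ND and 50.2% in that of D1M against ND. Shares within a flow cell were not computed for all genes.

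Next the tissues themselves were compared over all 36 libraries. Matrix transcripts were mostly at a higher relative level in colon, where 28 members were higher, 9 lower and 17 not called, with a median log2 difference of 0.246. Over all 13697 genes 38.7% were called as higher and 34.5% as lower in colon, with a median of 0.027. Each rat gave both tissues, and with the rat as a replicate block 27 members were higher and 8 lower. *Mmp2* and *Col4a2* were the members lost. Without K4028, 24 were higher and 9 lower, with a median of 0.204.

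**Figure D5:**
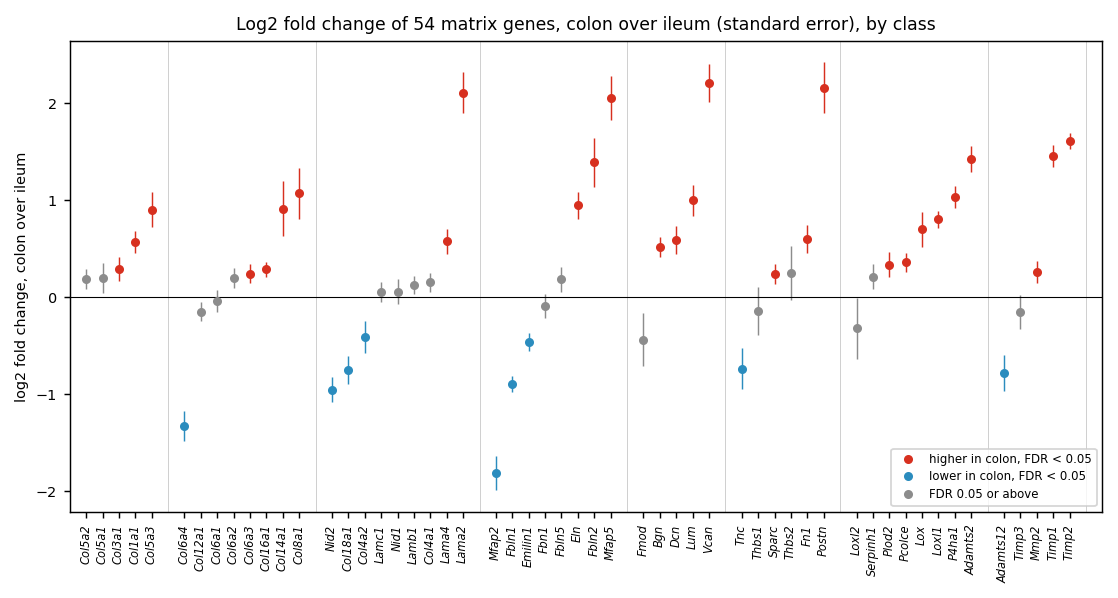
Log2 difference of colon over ileum (y axis) of the 54 members by role (x axis), from edgeR over 36 libraries, with bars of 1 SE. *Vcan*, *Postn*, *Lama2*, *Mfap5*, *Timp2* and *Timp1* lie at 1.46 or above, and *Mfap2* at -1.82 and *Col6a4* at -1.33 lie lowest.

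*Timp2* had the smallest FDR of the members, and its lowest colon library, at 100 CPM, exceeded its highest ileum library, at 69.9 CPM (log2 fold change 1.61, SE 0.085, FDR 1.15e-17). *Timp1* (log2 fold change 1.46, SE 0.11, FDR 2.56e-13) and *Postn* (log2 fold change 2.16, SE 0.26, FDR 9.11e-09) were also higher in colon. So were *Lum* (1.00, FDR 8.44e-07), *Eln* (0.95, FDR 3.87e-07) and *Loxl1* (0.81, FDR 5.48e-10). The fallen ileal genes *Mfap5* (2.06, FDR 6.47e-10) and *Lama2* (2.11, FDR 9.09e-11) were among the members with the greatest excess in colon. Smooth muscle markers summed to 7024 to 23870 CPM in colon and 2106 to 12360 CPM in ileum, with 9 of 13 higher in colon, and their part in these differences was not tested.

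Ileum held the higher level of *Mfap2* (log2 fold change -1.82, SE 0.18, FDR 5.34e-11), whose ileal levels were 19.97 to 29.6 CPM (median 27.6) over ND, 20.9 to 56.7 (median 33.0) over D1M and 20.5 to 50.6 (median 32.3) over D3M rats and whose colon levels were 7.98 to 14.9 CPM (median 11.1) over ND, 4.15 to 12.6 (median 6.84) over D1M and 4.39 to 10.1 (median 8.49) over D3M rats. *Col6a4* (log2 fold change -1.33, SE 0.15, FDR 2.22e-09), *Fbln1* (log2 fold change -0.90, SE 0.085, FDR 2.69e-11) and *Col18a1* (log2 fold change -0.75, SE 0.15, FDR 2.85e-05) were likewise higher in ileum. The elastic fiber genes were thus split between the tissues, with *Eln*, *Mfap5* and *Fbln2* (1.39, FDR 1.21e-05) higher in colon and *Mfap2*, *Fbln1* and *Emilin1* (-0.46, FDR 4.13e-05) higher in ileum. *Fbln2* is named here after its values were seen. All 5 fibrillar chains had positive folds and 3 were called, *Col1a1* (0.57, FDR 4.82e-05) and *Col3a1* (0.29, FDR 0.0305) among them.

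The collagen IV genes *Col4a1* and *Col4a2* stand head to head on chromosome 16, and in GRCr8 their starts lie 76 bases apart, so that their promoters overlap and are shown together (chr16:84885347-84885596, plus strand for *Col4a1* and chr16:84885521-84885770, minus strand for *Col4a2*), with the same motifs in capitals.
*Col4a1*: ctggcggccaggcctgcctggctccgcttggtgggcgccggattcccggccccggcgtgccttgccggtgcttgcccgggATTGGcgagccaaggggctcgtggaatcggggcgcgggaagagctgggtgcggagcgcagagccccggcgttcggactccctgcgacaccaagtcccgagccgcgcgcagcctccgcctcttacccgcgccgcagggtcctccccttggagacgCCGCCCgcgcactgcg
*Col4a2*: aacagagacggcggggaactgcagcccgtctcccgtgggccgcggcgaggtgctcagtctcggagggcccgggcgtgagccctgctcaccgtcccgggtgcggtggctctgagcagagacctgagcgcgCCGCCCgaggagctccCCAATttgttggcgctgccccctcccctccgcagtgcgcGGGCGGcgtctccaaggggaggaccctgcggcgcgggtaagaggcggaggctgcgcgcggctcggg

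In the rn6 annotation used for counting, 83600 bases lie between the ends of the 2 genes. Both promoters held a CCAAT box and GC boxes and no TATA box, and 75.2% and 74.4% of their bases were G or C. In colon over ileum *Col4a1* had a log2 difference of 0.16, FDR 0.144 and *Col4a2* one of -0.41, FDR 0.0256. Between D3M and ND ileum they were at -0.27 and -0.076, neither called. The difference between the 2 genes was not tested. *Dcn* and *Lum*, which lie 37447 bases apart on chromosome 7, were both higher in colon (0.59 and 1.00).

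Whether the difference between D3M and ND rats was the same in both tissues was tested as the contrast of colon minus ileum. No member was called by edgeR, where 1.56% of all 13697 genes were, and with the rat as a replicate block 0 members were called. An unadjusted p under 0.05 was found for 2 members with the more negative fold in colon, against 10.6% of all genes. It was found for 3 with the more negative fold in ileum, against 6.24% of all genes. The smallest FDR was that of *Fbln1* (log2 fold change -0.68, SE 0.20, FDR 0.0685). It was called by DESeq2, without D3M rat K3959 and without ND rat K4048, and *Timp2* (log2 fold change 0.58, SE 0.19, FDR 0.11) was called without K4048. *Lama2* had log2 fold change 1.15, SE 0.52, FDR 0.246, *Eln* log2 fold change 0.23, SE 0.35, FDR 0.812 and *Col1a1* log2 fold change -0.12, SE 0.29, FDR 0.897. The median over the 54 members was 0.043, and it was between -0.127 without ND rat K4048 and 0.136 without D3M rat K3980.

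The remaining genes of the matrix pathways were read from lists of related genes. Between D3M and ND ileum 8.31% of all genes were called as higher and 4.22% as lower, and the counts below stand beside those shares. In ileum, D3M against ND, 3 of 14 other collagen chains fell, *Col4a4* (-1.05, FDR 0.00249) and *Col4a5* (-1.74, FDR 0.0182) of collagen IV and *Col17a1* (-2.04, FDR 0.00681) of the hemidesmosome. Among the other laminins and basement membrane genes *Lama3* (0.86, FDR 0.00968), the α chain of an epithelial laminin, rose. Of 18 other modifying and processing enzymes 2 rose, *Fkbp10* (1.52, FDR 0.00674) and *P3h4* (0.92, FDR 0.0118), and *P3h3* fell (-0.56, FDR 0.0103). Of 25 other proteases and inhibitors *Mmp16* fell (-1.15, FDR 0.044).

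Matrix receptors and TGF-beta genes were mixed, beside the same shares of all genes, 8.31% higher and 4.22% lower. Of 17 receptors 3 rose, the syndecan *Sdc1* (0.70, FDR 0.00366) and the integrin chains *Itgav* (0.96, FDR 0.0064) and *Itgb5* (0.57, FDR 0.0297). Of 23 genes of TGF-beta signalling, the best known inducer of collagen genes, 3 fell and 1 rose, among them the ligand *Tgfb3* (-0.87, FDR 0.012), the latency protein *Ltbp4* (-0.78, FDR 0.0265) and *Smad3* (0.46, FDR 0.0282), which was the one to rise. Medians were -0.497 for the other collagen chains, -0.206 for the other proteases and inhibitors, -0.165 for the receptors, -0.09 for the other laminins, -0.072 for TGF-beta signalling and -0.021 for the other enzymes, beside -0.081 over all genes.

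In colon, D3M against ND, edgeR called none of these 6 lists' genes, as only *Col1a1* and *Col3a1* passed in that tissue. Their medians were -0.428 for 11 other collagen chains, -0.295 for 23 genes of TGF-beta signalling, -0.143 for 23 other proteases and inhibitors, -0.084 for 16 receptors, -0.027 for 17 other enzymes and -0.004 for 12 other laminins, beside -0.011 over all genes. In the test of the difference between the tissues *Col4a4* (1.24, FDR 0.0163) was called with the more negative fold in ileum. *Fkbp10* (-1.92, FDR 0.00579) and *Sdc1* (-0.81, FDR 0.0376) were called with the more positive fold in ileum.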

How the data were processed

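The authors aligned reads of polyadenylated RNA from whole ileum and proximal colon (directional TruSeq mRNA libraries of 18 rats) to rn6 with STAR and counted reads per annotated gene in SeqMonk. No version of STAR and no strand setting of the counting is given in the sources used here. The deposited table holds raw counts, with no normalization, for 24773 genes and 36 libraries. A second deposited table of log2 values scaled to library totals was used only to check names. Further per-sample columns, 36 of the count table and 72 of the other, were not used. Groups, rats and flow cells came from the labels.

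Members and gene lists were chosen with earlier results of these data known. Each tissue (18 libraries) was fitted in R 4.3.3 with edgeR 4.0.16, and limma 3.58.1 and the data.table package (1.17.8) served it. Genes were kept by filterByExpr, scaled by TMM and fitted with glmQLFit (robust, legacy) on group and flow cell, and tested with glmQLFTest, with p-values adjusted over all genes by the method of Benjamini and Hochberg and called at FDR 0.05. SE is the log2 fold change divided by the root of F. Colon was compared with ileum over 36 libraries with group and flow cell, and the tissue difference in D3M against ND as an interaction. The model fits were tested on simulated data. Rats pair the tissues. The correlation of the deviations of a rat's ileum and colon from their group means was -0.564 to 0.767 (median -0.022) and above 0.1 in 7 of 18 rats.

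Named genes are, per comparison, the called members or, above 10 calls, the 10 with the largest change among those with at least 10 CPM, the 3 members with the highest level of each of 8 roles, and genes the paper names. From the lists, up to 3 called genes per comparison are named. Alternatives were RLE and upper quartile scaling, no filter, DESeq2 1.42.0, a filter of 1 CPM in 6 libraries and the edgeR 4 method. Others were voom with quality weights, no robust estimation, no flow cell term, no flow cell 2 and only the groups compared. Further ones were the rat as replicate block, each rat left out, and 2 libraries with RNA of the other tissue left out. These 2 were the colon of K4028 and the ileum of K4040, so an ileum fit lost K4040 alone, and the ileum of P762 stayed in. Promoters came from RefSeq (GRCr8). No gene lengths were used. A result for 1 gene of the related lists is not reported here. Figures used matplotlib 3.10.9 (Python 3.11).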

Additional observations from a re-analysis of the deposited data

Results flagged for a closer look

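In groups of 6 libraries, 234 tests asked whether the highest or lowest library stood apart by Dixon's criterion at the 95% level. It was met 11 times, and about 12 would be met by chance.

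In colon, D3M rat P762 stood low in *Bgn*, at 75.77 CPM with the next library at 116.3 CPM, and in *Col6a2*, at 185.3 CPM with the next at 270.7 CPM. D1M rat K3988 stood low in *Col3a1*, at 316.5 CPM with the next at 371.8 CPM, and in *Loxl1*, at 16.28 CPM with the next at 27.89 CPM. ND rat K4037 stood high in *Lum*, at 107.1 CPM with the next at 55.9 CPM, and in the sum of the proteoglycans, at 508.1 CPM with the next at 338.0 CPM. Over the 54 members in colon, K4037 was the highest of its group in 33, K3988 the lowest in 30 and P762 the lowest in 24.

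In ileum the libraries that stood apart were of different rats. *Dcn* was high in D3M rat K3980, at 103.3 CPM with the next at 70.55 CPM. *Lama2* was low in D3M rat K3977, at 0.3415 CPM with the next at 1.159 CPM. In D1M ileum *Lamb1* was high in rat K3978 (115.2 CPM, next 80.11 CPM), *Mfap5* was high in rat K3990 (5.676 CPM, next 2.204 CPM), and the sum of the genes of collagen processing and crosslinking was low in rat K3986 (160.0 CPM, next 186.4 CPM). *Lama2* and *Mfap5* were at a few CPM in ileum, where counting error is largest.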

How the results depend on the processing

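Under every alternative the median fold of the members moved by no more than the median SE of the members' folds. That limit is wide, as the median of D1M against ND ileum ran from -0.202 to 0.121 when each rat was left out. Within each tissue the median kept its sign in the comparisons of D3M with ND and of D3M with D1M rats. Counts of members called moved more. The share of all genes called under each alternative is not given here, so these counts are not set against it. Between D3M and ND ileum, 7 were called in the fit reported, 11 by DESeq2, 3 with only the 2 groups and 2 without flow cell 2. Fits without 1 rat called 2 to 13. The count was 3 without ND rat K4040, the only ileum library set aside as holding RNA of the other tissue. Between D3M and D1M ileum, where 0 were called, DESeq2 called 2, the fit with only the 2 groups 2, voom 1 and fits without 1 rat 0 to 1. Between D3M and ND colon, where 2 were called, DESeq2 called 8, the fit with only the 2 groups 6, the fits without a flow cell term and without flow cell 2 called 0, and fits without 1 rat 0 to 3. Between D1M and ND colon DESeq2 called 2 and edgeR 0. For the difference between the tissues DESeq2 called 1 and fits without 1 rat 0 to 2. Between colon and ileum 33 to 40 members were called under all alternatives, and 35 with the rat as replicate block.

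Of the folds of single named genes, 6, of 5 genes, changed sign under at least 1 alternative, and none of the 6 was called. Between D3M and ND ileum *Col18a1* was at -0.278 with only the 2 groups and from -0.101 to 0.354 without 1 rat. *Emilin1* was at 0.047 with voom and from -0.179 to 0.101 without 1 rat, *Adamts12* at 0.085 with voom, and *Fn1* from -0.106 to 0.378 without 1 rat. Between D3M and ND colon *Fn1* was at -0.490 without flow cell 2 and from -0.072 to 0.279 without 1 rat, and *Timp1* at -0.053 without flow cell 2. The cause was not tested. Folds of named genes and medians of the members were counted together over the alternatives, and 2076 values were unchanged. For a fold this meant the same direction and side of the threshold. For a median, which has no threshold, it meant a shift within the median SE of the members' folds. Of the folds 66 lost the call, 20 gained one and 16 changed sign. Depth limits what can be said of members at about 1 CPM, such as *Loxl2* and *Col8a1*.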

Other observations

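Markers of other cells that whole gut tissue can hold were read in the same comparison of D3M with ND rats. Over all genes in ileum 8.31% were called there as higher and 4.22% as lower. In ileum 1 of 8 adipocyte markers fell, *Fabp4* (-2.08, FDR 0.0226), and of 13 markers of enteric glia and neurons *S100b* fell (-2.05, FDR 0.0376) and *Erbb3* rose (0.72, FDR 0.0049). Mast cell markers were negative in 6 of 6 genes with a median of -0.667, T cell markers in 10 of 10 with a median of -0.426, macrophage markers in 9 of 11 with a median of -0.293 and B cell markers in 4 of 12 with a median of 0.284, and edgeR called none of them. In colon edgeR called no gene of any marker list. There the medians were -1.204 for 7 B cell, -1.094 for 10 T cell, -0.657 for 6 mast cell, -0.579 for 9 adipocyte, -0.225 for 11 macrophage, -0.186 for 15 pericyte and endothelial, -0.02 for 12 glial and neuronal, 0.041 for 14 epithelial and 0.163 for 13 smooth muscle markers. *Erbb3* made up 86.4% of the summed level of the glial and neuronal list in ileum, and epithelial cells express it too.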
